A study of Mus musculus with 4 samples.

Results

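The Rab GTPase genes were examined for PHF2 and for dimethylated histone H3 lysine 9 (H3K9me2) in cultured mouse neural stem cells. The members were the protein-coding genes of the GENCODE M21 annotation on chromosomes 1 to 19 whose symbol is Rab, a number and at most 1 further letter. This gave 55 genes of 20807 autosomal protein-coding genes, and the 4 Rab genes on X were left out. The members' names come from the annotation, and no measured value enters the rule. The members, roles and lists were, however, chosen with earlier results of these data known. The cells were wild-type C57BL/6J neural stem cells of stage E12.5 (embryonic day), grown on poly-D-lysine and laminin in medium with N2 and B27 supplements, EGF at 20 ng/ml and FGF at 10 ng/ml. The groups used were a PHF2 immunoprecipitation (antibody D45A2) and an H3K9me2 immunoprecipitation (antibody ab1220), with 1 sample each, and their 2 inputs were not analysed here. Both groups shared genotype, strain, stage and culture, and the labels do not say how many embryos or cultures were pooled. The values are called peaks, so neither the expression of the Rab genes nor the cell type could be read from them directly. Of the neural stem cell marker genes, 8 of 10 had a PHF2 peak at a start, Nes and Sox2 among them, and of the neuron marker genes 2 of 8 had one (25.0%), near the 30.3% of all autosomal coding genes.

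Rab proteins are small GTPases that mark the membranes of the secretory and endocytic pathways. Guanine nucleotide exchange factors (GEFs) load them with GTP, GTPase-activating proteins (GAPs) switch them off, and GDI proteins take the inactive form, which carries lipid groups added by a geranylgeranyl transferase, off the membrane. In neural progenitors the broadly expressed Rabs serve secretion, receptor recycling and cilia, while Rab3 proteins work at the synaptic vesicles of neurons. PHF2 is a Jumonji-type demethylase with a PHD finger that recognises H3K4me3, the mark of active starts. H3K9me2 is found in silent chromatin and has been described as a PHF2 substrate.

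The promoters of a few members are shown, with CpG dinucleotides in capitals. The sequences run 250 bases before to 50 after a start on the GRCm38.p6 build and are credited to RefSeq, whose table held 56 promoters of 44 members. Rab6a and Rab31 had the highest PHF2 scores. Rab1a had a PHF2 peak and its paralogue Rab1b had none. Rab3a and Rab3b, which are expressed mainly in neurons and secretory cells, had none. Of the promoters listed for Rab43, the one shown lay under its PHF2 peak.
Rab6a promoter (chr7:100607336-100607635, plus strand): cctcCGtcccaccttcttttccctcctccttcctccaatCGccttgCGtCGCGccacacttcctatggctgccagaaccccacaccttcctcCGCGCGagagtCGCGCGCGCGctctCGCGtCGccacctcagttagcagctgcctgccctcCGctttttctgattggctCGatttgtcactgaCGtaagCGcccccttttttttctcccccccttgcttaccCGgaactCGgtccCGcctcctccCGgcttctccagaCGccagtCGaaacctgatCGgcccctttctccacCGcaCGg
Rab31 promoter (chr17:65772703-65773002, minus strand): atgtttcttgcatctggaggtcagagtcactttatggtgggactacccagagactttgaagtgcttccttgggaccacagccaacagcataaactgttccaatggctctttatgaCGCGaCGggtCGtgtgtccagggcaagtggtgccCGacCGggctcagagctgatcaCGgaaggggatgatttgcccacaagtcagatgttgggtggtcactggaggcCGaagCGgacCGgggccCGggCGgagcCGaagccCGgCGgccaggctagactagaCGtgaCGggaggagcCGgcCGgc
Rab1a promoter (chr11:20201162-20201461, plus strand): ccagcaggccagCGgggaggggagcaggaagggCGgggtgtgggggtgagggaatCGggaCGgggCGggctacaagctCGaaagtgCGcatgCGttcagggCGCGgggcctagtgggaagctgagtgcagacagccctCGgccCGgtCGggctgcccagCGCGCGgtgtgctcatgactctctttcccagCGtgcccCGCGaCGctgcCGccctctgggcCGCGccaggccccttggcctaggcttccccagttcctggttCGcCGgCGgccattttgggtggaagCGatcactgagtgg
Rab1b promoter (chr19:5106947-5107246, minus strand): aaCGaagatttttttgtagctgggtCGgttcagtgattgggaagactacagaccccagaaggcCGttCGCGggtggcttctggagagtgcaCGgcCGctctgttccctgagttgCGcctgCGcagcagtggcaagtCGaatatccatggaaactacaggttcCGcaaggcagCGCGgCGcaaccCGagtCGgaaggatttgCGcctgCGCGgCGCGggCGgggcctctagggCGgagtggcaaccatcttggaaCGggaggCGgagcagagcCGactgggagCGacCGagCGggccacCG
Rab3a promoter (chr8:70754453-70754752, plus strand): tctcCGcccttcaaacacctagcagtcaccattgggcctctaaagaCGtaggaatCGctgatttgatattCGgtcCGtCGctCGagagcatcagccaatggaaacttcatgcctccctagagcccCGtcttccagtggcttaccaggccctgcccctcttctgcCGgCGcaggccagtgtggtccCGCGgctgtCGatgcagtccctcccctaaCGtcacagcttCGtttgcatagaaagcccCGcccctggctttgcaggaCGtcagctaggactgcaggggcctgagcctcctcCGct
Rab3b promoter (chr4:108878820-108879119, plus strand): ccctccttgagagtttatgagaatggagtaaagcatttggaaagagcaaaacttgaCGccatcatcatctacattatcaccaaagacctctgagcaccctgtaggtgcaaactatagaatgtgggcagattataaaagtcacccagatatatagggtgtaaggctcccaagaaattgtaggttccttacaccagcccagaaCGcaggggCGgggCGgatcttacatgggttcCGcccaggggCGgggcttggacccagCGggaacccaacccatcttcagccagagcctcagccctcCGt
Rab43 promoter (chr6:87811730-87812029, minus strand): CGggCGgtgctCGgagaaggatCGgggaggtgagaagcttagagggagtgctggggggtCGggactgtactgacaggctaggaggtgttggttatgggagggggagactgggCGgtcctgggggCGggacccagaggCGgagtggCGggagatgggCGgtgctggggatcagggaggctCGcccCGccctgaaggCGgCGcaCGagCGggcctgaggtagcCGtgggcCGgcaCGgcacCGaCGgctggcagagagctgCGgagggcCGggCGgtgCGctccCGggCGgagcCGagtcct
The Rab6a promoter held 29 CpG, the Rab43 promoter shown 28, the Rab1a promoter 27 and the Rab31 promoter 19, against 8 in the Rab3b promoter. The other promoters listed for Rab43, not under its peak, held 20, 18 and 3. Rab1b, without a peak, held 30 CpG and Rab3a held 18 in the promoter shown and 22 in its other one, so single promoters of both kinds were CpG-rich. Over all Rab promoters in the table, the median was 27 CpG for the 23 under a PHF2 peak and 18 for the 33 not under one. The same medians over all autosomal promoters in the table were 26 for the 6236 under a peak and 5 for the other 25160.

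PHF2 peaks lay at the starts of 25 of the 55 Rab genes, 45.5% (95% Wilson interval 33.0% to 58.5%), and 30.3% of all autosomal coding genes had one. A peak was counted when it overlapped a window of 1 kb on either side of any annotated start by 1 bp or more. Among the roles, the genes of transport between the endoplasmic reticulum and the Golgi had the most, 8 of 10, and the genes of regulated secretion had 1 of 9. The CpG content of starts, given below, also differed between both roles. With 1 sample per target no test between lists was made, and intervals cover counting error only.

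**Figure D1:**
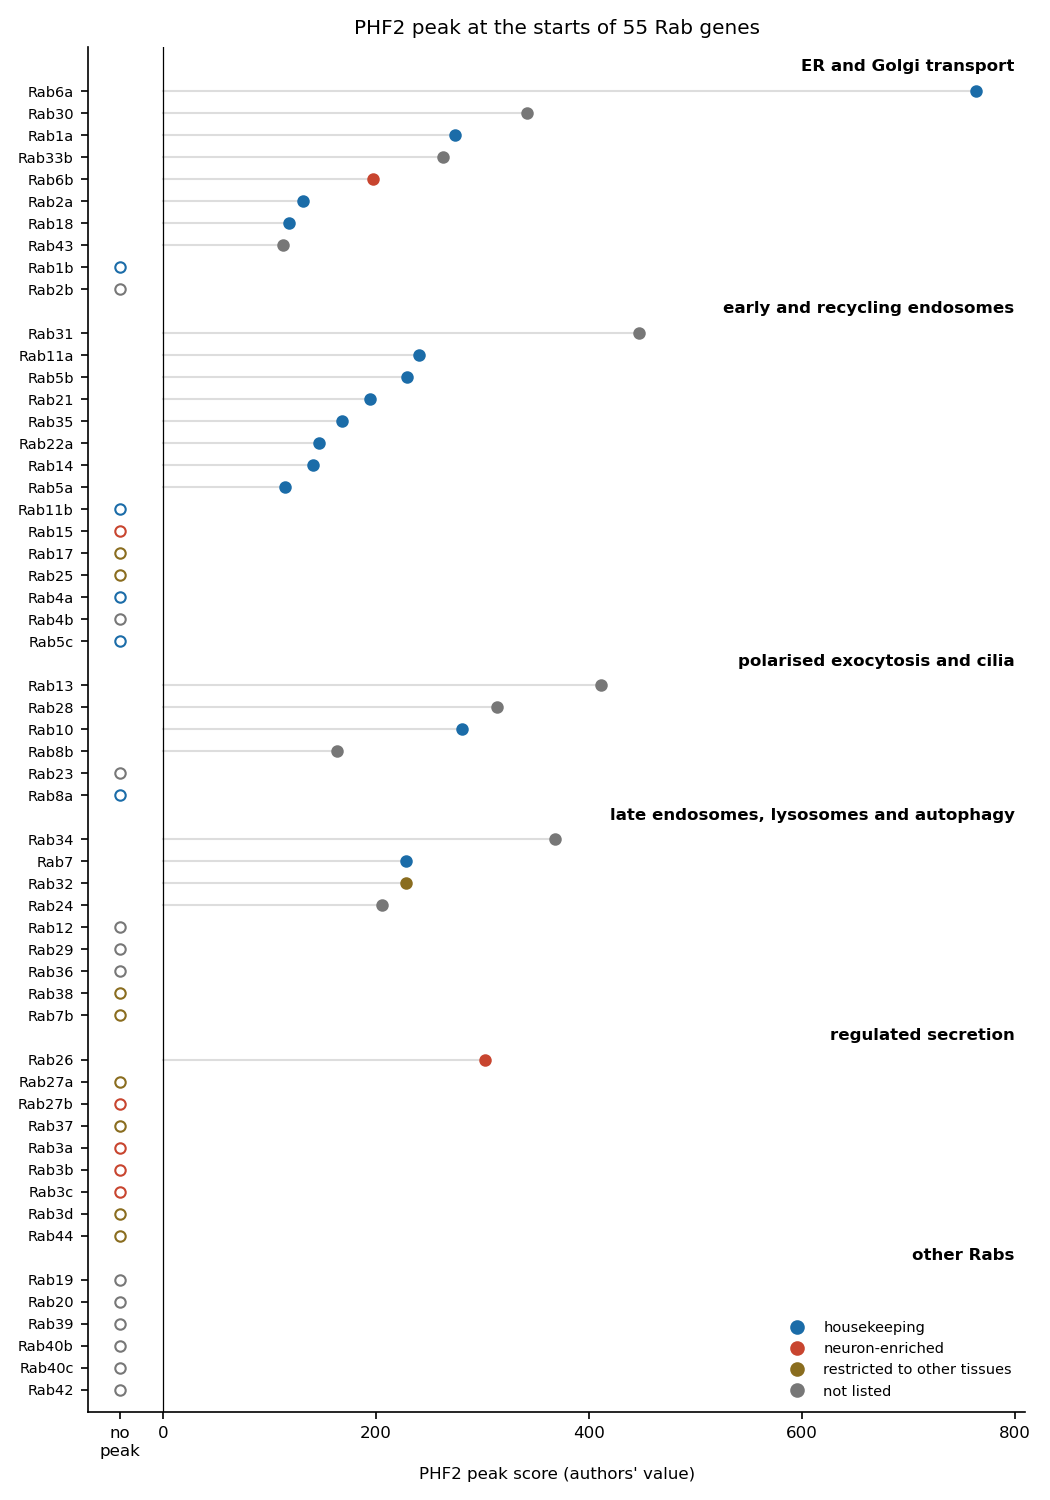
PHF2 peak score at the starts of each Rab gene, grouped by role and coloured by breadth of expression as background knowledge gives it. Filled points give the authors' score on the horizontal axis, open points are genes with no peak. Rab6a stands apart at 763, the others lie between 113 and 447, and in regulated secretion only Rab26 has a filled point.

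The score is the authors' own value for each peak, without a stated scale, and it serves only to rank peaks within the list of 5992. The median over the 25 Rab peaks was 229, the median over all PHF2 peaks was 229, and the highest score in the list was 3226. Of the 25 genes, 12 (48.0%) had a score above the list's median, as did 50.9% of all coding genes with a peak. The Rab genes with a peak thus sat in the middle of the list. Longer peaks had higher scores, with a Spearman correlation of 0.83 over the 25 Rab peaks and 0.84 over all 5992 peaks. The lowest scores at Rab genes were those of Rab43 (113), Rab5a (115) and Rab18 (119), which rank near the end of the list, whose lowest score was 100.02.

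The ER and Golgi Rabs held the highest score of the family. Rab6a, which directs transport within and from the Golgi, had a peak of 2245 bp with a score of 763 (chr7:100606983-100609227), rank 366 of the list and the only Rab peak in its highest-scoring 10%. This peak also covered a start of the divergent gene Mrpl48, which encodes a mitochondrial ribosomal protein, so it cannot be assigned to Rab6a alone. Rab30, a Golgi Rab, had a score of 342 (chr7:92740618-92742480). Rab1a, which serves transport from the endoplasmic reticulum to the Golgi, had 275 (chr11:20201220-20202528), and Rab33b, a Golgi Rab that also acts in autophagy, had 263. Rab2a, another Rab of this route, had 131, and its peak began 110 bp downstream of its single annotated start. Rab18, a Rab of lipid droplets and the endoplasmic reticulum, had 119 on a peak at internal starts, and was not counted when only the 5′-most start was used. Rab1b and Rab2b had no peak, and the nearest one lay 165249 bp and 10919 bp from their starts.

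Of the Rabs of early and recycling endosomes, 8 of 15 had a peak. Rab31, which acts between the Golgi and endosomes, led with 447 over 2425 bp (chr17:65770812-65773236). Rab11a, the central Rab of recycling endosomes, had 240 (chr9:64737008-64738092). Rab5b, which acts in early endosome fusion, had 230, and Rab5a, which acts in the same step, had 115. Rab21, a Rab of integrin traffic, had 194, and Rab35, a Rab of fast recycling, had 168. Rab22a had 147 and Rab14 had 141, and both act on endosomes. Rab4a, Rab4b, Rab5c, Rab11b, Rab15, Rab17 and Rab25 had none.

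Polarised exocytosis and cilia had 4 of 6 genes with a peak. Rab13, a Rab of tight junction traffic, had 411 on a peak that also covered a start of the ribosomal protein gene Rps27 (chr3:90212878-90214257). Rab28, a Rab of cilia, had 314, Rab10, which serves basolateral and axonal exocytosis, had 281, and Rab8b had 164. Rab8a, which carries cargo to the primary cilium, and Rab23, an inhibitor of Hedgehog signalling, had none, although their most CpG-rich starts had a CpG observed/expected ratio of 0.655 and 0.841. Late endosomes, lysosomes and autophagy had 4 of 9. Rab34, a Rab of lysosome position and of cilia, had 369 (chr11:78188194-78189720), Rab7, the main Rab of late endosomes, had 229 (chr6:88044287-88045608), Rab32, a Rab of melanosomes, had 228, and Rab24, a Rab of autophagy, had 206 on a peak shared with Prelid1. Rab7b, Rab12, Rab29, Rab36 and Rab38 had none.

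Regulated secretion had the fewest peaks of the roles with a clear function. All 4 Rab3 genes, whose products control vesicle release, and both Rab27 genes, which act in secretion of granules, had none, as had Rab37 and Rab44. The nearest PHF2 peak lay 54174 bp from a start of Rab3a, 30339 bp from one of Rab3b, 113086 bp from one of Rab3c and 37353 bp from one of Rab3d. Rab26, a Rab of synaptic vesicles, was counted with a score of 303 because of a peak at its 3′ end (chr17:24527236-24529718), 228 bp from an internal start. That peak covered no start of Rab26 but did cover starts of the neighbouring gene Traf7 and of the antisense RNA gene Rab26os. The remaining Rabs (Rab19, Rab20, Rab39, Rab40b, Rab40c and Rab42) had 0 of 6.

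The broadly expressed Rabs had peaks more often than the neuron-enriched ones. Of the housekeeping list, 13 of 18 genes had a peak, 72.2% (95% Wilson interval 49.1% to 87.5%). Of the neuron-enriched list (Rab3a, Rab3b, Rab3c, Rab6b, Rab15, Rab26 and Rab27b), 2 of 7 had one, 28.6% (8.22% to 64.1%), near the 30.3% of all coding genes. The intervals of both lists overlap, the lists were drawn up with earlier results of these data known, and the difference was not tested. The 2 neuron-enriched genes with a peak were Rab26 and Rab6b. The latter, the neuronal relative of Rab6a, had a score of 197 (chr9:103111420-103112515). With peaks that contain a start of the gene, the housekeeping list had 12 and the neuron-enriched list had 1, Rab6b. The housekeeping peaks had a median score of 194, below the 229 of all PHF2 peaks. With the higher-scoring 50% of peaks, 5 housekeeping and 1 neuron-enriched genes had a peak, and 15.4% of all coding genes. Of the Rabs restricted to other tissues, such as the epithelial Rab17 and Rab25 and the melanocyte Rab38, 1 of 9 had a peak, Rab32. Of the 21 genes on none of these lists, 9 had a peak (42.9%). The 5 housekeeping genes without one were Rab1b, Rab4a, Rab5c, Rab8a and Rab11b, and their nearest peak lay between 24304 bp (Rab8a) and 165249 bp (Rab1b) from a start.

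**Figure D2:**
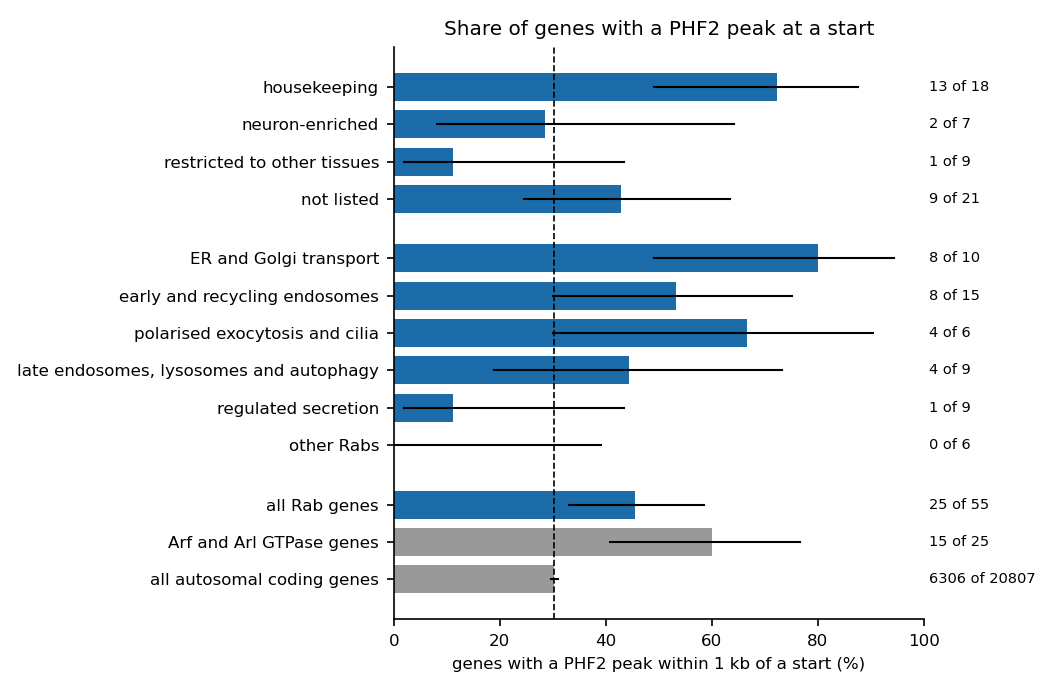
Share of genes with a PHF2 peak within 1 kb of a start, in percent, by breadth of expression, by role and for the Arf and Arl GTPase genes. Black lines are 95% Wilson intervals, the dashed line is the share of all autosomal coding genes (30.3%). Housekeeping Rabs (72.2%) and ER and Golgi Rabs (80.0%) lie above it, and the intervals of the lists of 6 to 9 genes are wide.

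CpG content also differed between these lists. The ratio used was that of observed to expected CpG in the 2 kb around a gene's most CpG-rich start. Its median was 0.657 in the housekeeping list, 0.532 in the neuron-enriched list and 0.412 in the list restricted to other tissues. The 21 genes on none of these lists had a median of 0.658, near that of the housekeeping list, but only 42.9% of them had a peak. Over Rab genes the ratio had a median of 0.663 for the 25 with a peak and 0.513 for the 30 without. Both ranges overlapped, from 0.436 to 0.925 with a peak and from 0.183 to 0.857 without. Over all coding genes the medians were 0.715 with a peak and 0.371 without. By role, the median ratio was 0.681 for ER and Golgi transport, 0.473 for regulated secretion and 0.567 to 0.657 for the others. The part of the ratio in the differences between lists and between roles was not tested. Over quintiles of this ratio among all coding genes, 11 of 16 Rab genes (68.8%) had a peak in the fourth and 10 of 13 (76.9%) in the fifth, against 51.5% and 71.8% of all coding genes in those quintiles. In the third quintile 4 of 17 Rab genes had one (23.5%), against 25.2% of all coding genes, and in the lower 2 quintiles 0 of 8 and 0 of 1. Rab3a lay in the fourth quintile and Rab12, Rab23 and Rab2b in the fifth, all without a peak. The gap between Rab genes and all coding genes was widest in the fourth quintile and smaller in the quintiles beside it.

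**Figure D3:**
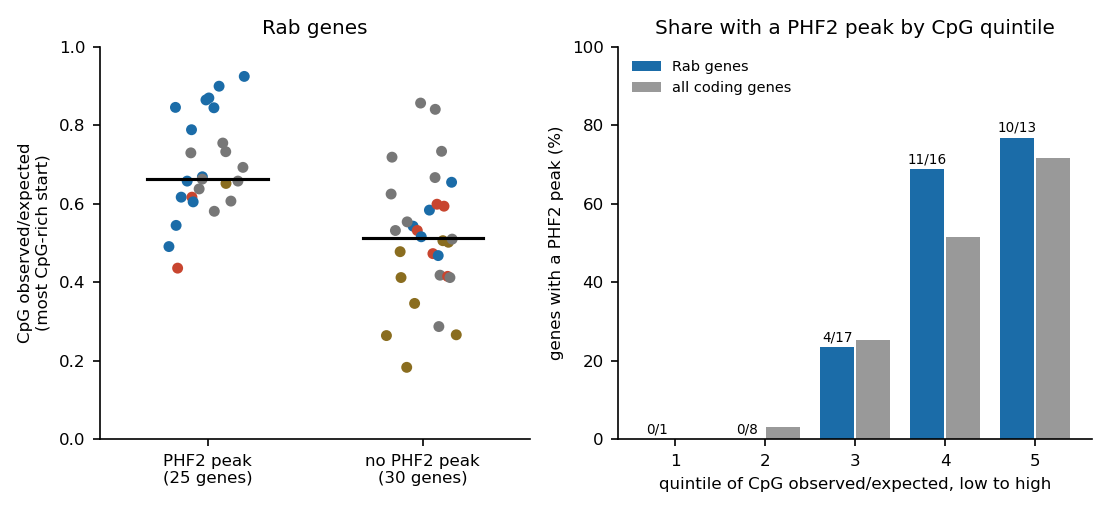
Left, CpG observed/expected at the most CpG-rich start of each Rab gene with and without a PHF2 peak, with medians as black lines and the colours of breadth used in the plot of scores. Right, the percentage of Rab genes and of all coding genes with a PHF2 peak in each quintile of that ratio over all coding genes. Both rise with CpG content, and Rab genes reach 76.9% in the highest quintile.

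Of 13 groups of close paralogues, 2 had a peak at every copy, 4 at no copy and 7 at some copies. Over all 55 Rab genes 45.5% had a peak, and whether paralogues differed more than other Rab genes was not tested. In the mixed groups, peaks were present at Rab1a, Rab2a, Rab5a, Rab5b, Rab7, Rab8b, Rab11a and Rab32. They were absent at Rab1b, Rab2b, Rab5c, Rab7b, Rab8a, Rab11b, Rab25 and Rab38. Both copies of the pairs Rab6a with Rab6b and Rab22a with Rab31 had one. No copy of the Rab3, Rab4, Rab27 and Rab40 groups had one.

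Most of the peaks lay on a start. Of the 25 peaks, 22 had their centre within 500 bp of the nearest start of the Rab gene, and 19 centres lay downstream and 6 upstream. Matching counts over all coding genes are not given here, so these are not read as a trait of Rab genes. The median offset was 160 bp downstream, and the extremes were 230 bp upstream at Rab35 and 1469 bp downstream at Rab26. The peaks were 848 bp (Rab43) to 2483 bp (Rab26) long with a median of 1307 bp, and all PHF2 peaks had a median of 1306 bp. A peak covered a start of its own gene in 23 cases, and all annotated starts of it in 12. Of the 6306 coding genes with a peak, 6103 had one that contained a start. At genes with several starts the choice could be narrow: the Rab43 peak covered 1 of 6 starts, the Rab30 peak 2 of 5, the Rab14 peak 7 of 12 and the Rab11a peak 5 of 9. In 4 cases the peak also covered a start of another coding gene (Mrpl48, Rps27, Prelid1 and Traf7), and in 5 cases one of a noncoding gene. No Rab gene had a second PHF2 peak. A PHF2 peak reached the body away from starts in 6 Rab genes (10.9%), against 7.22% of all coding genes, and in each it was the same peak as at the start. A PHF2 peak confined to the body was found in 0 Rab genes and in 224 coding genes (1.08%). The 30 genes without a peak had their nearest one between 3.88 kb (Rab25) and 457 kb (Rab27b) away, with a median of 37.9 kb, so none fell just outside the window.

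**Figure D4:**
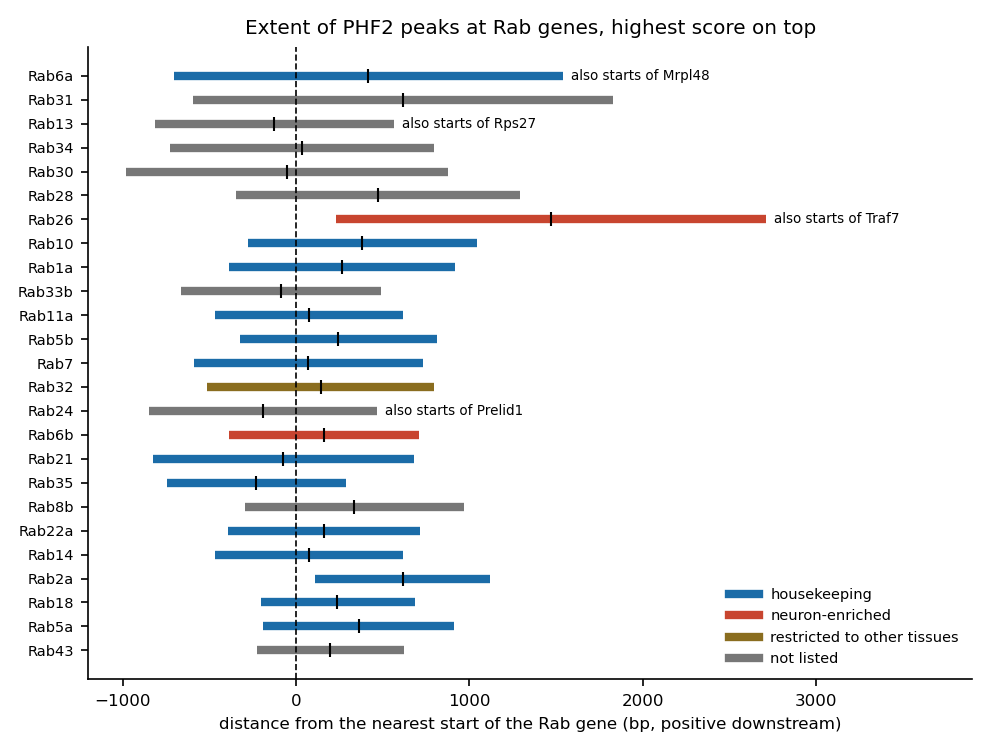
Extent of the 25 PHF2 peaks around the nearest start of the Rab gene, with the highest score on top; the horizontal axis is distance in bp, positive downstream, and black ticks are peak centres. Peaks are offset downstream in 19 of 25 genes, and the Rab26 and Rab2a peaks do not reach a start of the gene.

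Promoter letters were searched for 7 short motifs on both strands of the 56 Rab promoters. GGGCGG, the core of SP sites, was found in 18 of the 23 promoters under a PHF2 peak and in 22 of the 33 others, 71.4% of all Rab promoters and 36.0% of all autosomal promoters in the table. Among promoters under a peak alone the shares were close, 78.3% for Rab promoters and 72.1% for all. CCAAT, the NF-Y core, was found in 44.6% of Rab promoters and 37.3% of all. The CLEAR element, CACGTG with GT before it and AC after it, bound by TFEB, a regulator of lysosomal genes, was found in 3 Rab promoters (5.36%) and in 0.328% of all promoters. These were the promoters of Rab5a, Rab21 and Rab24, all of them under a PHF2 peak, 13.0% of such Rab promoters and 0.738% of all such promoters. It is shown in capitals with its flanks, as this small set stood out after the values were seen.
Rab5a CLEAR element (promoter chr17:53478984-53479283, plus strand): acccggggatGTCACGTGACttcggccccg
Rab21 CLEAR element (promoter chr10:115315542-115315841, minus strand): gcccaccgcgGTCACGTGACgaggggtgtg
Rab24 CLEAR element (promoter chr13:55321931-55322230, minus strand): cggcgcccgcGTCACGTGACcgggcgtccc
CACGTG alone, which includes those matches, was found in 10.7% of Rab promoters and 7.14% of all, and CCGGAAG, an ETS core, in 8.93% and 9.0%. TATAAA was found in the promoters of Rab3b, Rab7 and Rab42 (5.36%, and 13.6% of all promoters). The NRF1 site, AT with GCGC on either side, was found in none of the 56, and in 0.968% of all.

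H3K9me2 regions were few at Rab starts, as at coding genes in general. A region lay within 1 kb of a start in 1 of 55 genes (1.82%, 95% Wilson interval 0.322% to 9.61%), and 3.61% of all autosomal coding genes had one, a share inside that interval. This gene was Rab43, a Golgi Rab, where a region of 73 bp, the minimum length in the list, lay in an intron 510 bp from an internal start. It lay 1879 bp from the PHF2 peak of the same gene, and the locus also carries the overlapping annotated gene Gm45140. With the 5′-most start alone no Rab gene had a region. Of the 36171 H3K9me2 regions in the list, 55.6% had that minimum length. A missing region does not show that the mark is absent. Shown, with CpG in capitals, are the region at Rab43, the nearest ones to the starts of Rab38, Rab6a and Rab3c, and the longest in a Rab body, in Rab3b.
H3K9me2 region near Rab43 (chr6:87809208-87809280, plus strand): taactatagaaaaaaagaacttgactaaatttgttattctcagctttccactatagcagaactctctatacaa
H3K9me2 region near Rab38 (chr7:88431454-88431526, plus strand): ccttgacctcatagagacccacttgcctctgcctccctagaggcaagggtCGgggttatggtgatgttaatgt
H3K9me2 region near Rab6a (chr7:100605820-100605914, plus strand): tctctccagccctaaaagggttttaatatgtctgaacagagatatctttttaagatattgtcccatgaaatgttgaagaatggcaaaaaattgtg
H3K9me2 region near Rab3c (chr13:110275369-110275458, plus strand): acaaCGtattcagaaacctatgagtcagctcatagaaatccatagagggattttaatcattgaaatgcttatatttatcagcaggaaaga
H3K9me2 region near Rab3b (chr4:108931284-108931428, plus strand): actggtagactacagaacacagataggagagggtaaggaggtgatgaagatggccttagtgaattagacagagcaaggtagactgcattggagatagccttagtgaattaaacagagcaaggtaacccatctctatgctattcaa
The regions shown held 0 or 1 CpG each, and the most in any Rab body region was 3, at Rab31. The Rab38 region lay in an intron 1217 bp downstream of the start of this melanosome Rab, which had no PHF2 peak. The Rab6a region lay 1543 bp upstream of the start, inside the gene Mrpl48, and 1069 bp from the edge of the highest-scoring Rab peak. The Rab3c region lay 5583 bp downstream of the start, nearest to it of the 6 in that gene. The Rab3b region, in an intron, had a length of 145 bp.

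In gene bodies away from starts, 19 of 55 Rab genes (34.5%) had an H3K9me2 region, and 23.5% of all autosomal coding genes had one. Body length moved with this count. The Rab genes had a median length of 24.9 kb and all coding genes one of 17.6 kb. In the longest quartile of coding genes, 13 of 16 Rab genes had a region (81.2%), against 64.3% of all genes there. In the next quartile 6 of 23 had one (26.1%, against 20.4%), and in the 2 shorter quartiles 0 of 10 and 0 of 6 had one. The neuron-enriched genes had a median length of 64.3 kb and the housekeeping genes one of 26.9 kb, and the part of length in these counts was not tested. Per length, Rab bodies held 33 regions in 1.95 Mb, 17.0 per Mb (95% Poisson interval 11.7 to 23.8), and all coding bodies held 14.0 per Mb. The neuron-enriched list held 20.5 per Mb (10.3 to 36.8), and the housekeeping list 13.0 per Mb (5.21 to 26.7). These intervals overlap each other and include the value of all coding bodies.

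Rab3c, the longest member at 227 kb, held 6 regions, and Rab31, of 121 kb, held 3. The others held 1 or 2, among them the neuronal Rab3b and Rab6b with 2 each, and the housekeeping Rab5a and Rab10 with 2 each. Rab3a, of only 4.0 kb, held none, and its nearest region lay 218 kb from the start. Of the 33 regions, 30 were intronic and 3 lay in exons, at Rab3b, Rab30 and Rab31. A total of 18 had the minimum length, as had 55.6% of the whole list. No CpG was held by 18, a count not given here for all regions. Of the 33 regions, 4 (12.1%) were more than 50% soft-masked repeat, against 17.8% of all autosomal regions. The closest lay 8.48 kb from a PHF2 peak, at Rab5a. The distance from a Rab gene's 5′-most start to the nearest region had a median of 29.7 kb, and over all coding genes it had a median of 35.9 kb. It was 24.7 kb for the 25 Rab genes with a PHF2 peak and 35.8 kb for the 30 without, and over all coding genes 37.1 kb with a peak and 35.4 kb without. PHF2 at the start and H3K9me2 in the body occurred together in 11 Rab genes, among them Rab10, Rab11a, Rab31 and Rab6b. These were 57.9% of the Rab genes with a body region and 44.0% of those with a peak, against 38.6% and 29.9% of the coding genes in the same classes. Each feature alone was also more frequent in Rab genes, 45.5% with a peak and 34.5% with a body region, against 30.3% and 23.5%. Median length was 28.4 kb for Rab genes with a peak and 23.0 kb without, and 31.1 kb and 13.6 kb for all coding genes. Whether both occur together beyond this was not tested.

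**Figure D5:**
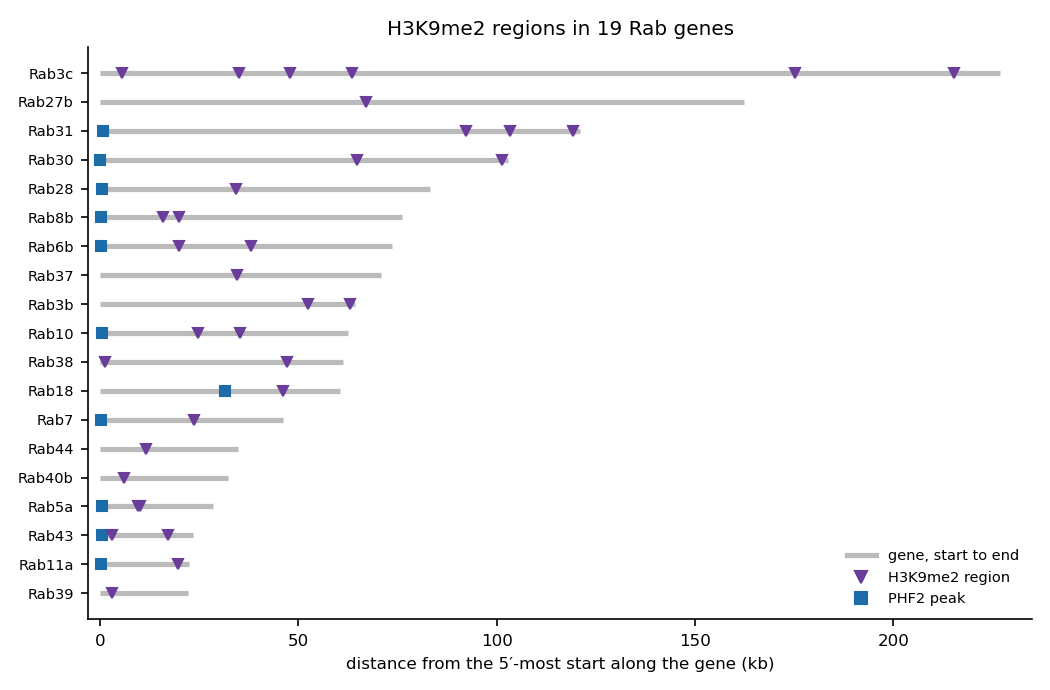
Position of H3K9me2 regions (triangles) and PHF2 peaks (squares) along the 19 Rab genes that hold a region, in kb from the 5′-most start, with grey lines from start to end of the gene. In these genes the region closest to a PHF2 peak outside start windows is 8.48 kb away, and Rab3c carries 6 of them.

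The genes that run the Rab cycle had PHF2 peaks at a share near that of the Rabs themselves, 49 of 114 (43.0%), against 30.3% of all coding genes. They had a median of 7 annotated starts against 3, and a median CpG ratio of 0.653 against 0.525. With the 5′-most start alone, 45 had a peak, and 28.2% of all coding genes. The part of starts and of CpG content was not tested. Of the genes for prenylation and membrane extraction, 4 of 6 had a peak: Chml (385), an escort protein, Rabggtb (381), a subunit of the geranylgeranyl transferase, Gdi2 (294), the broadly expressed GDI, and Rabif (131). The GEFs had 15 of 34 (44.1%), led by Dennd2a (574), Dennd1a (386), Dennd5b (355) and Ric1 (282), of which the last belongs to the exchange factor of Rab6. The GAPs had 20 of 36 (55.6%), led by Tbc1d5 (609), Tbc1d9 (533), Usp6nl (439) and Tbc1d4 (378). The effectors had 10 of 38 (26.3%), near the 30.3% of all coding genes, led by Bicd1 (399), a dynein adaptor of Rab6, Rab11fip2 (367), an effector of Rab11, Rims2 (365), an active zone effector of Rab3, and Eea1 (323), the early endosome tether of Rab5. An H3K9me2 region lay at a start of 4 GAP genes (Sgsm2, Tbc1d12, Tbc1d30 and Evi5l), of the effector gene Sytl2 and of no other gene of the cycle, 5 of 114 (4.39%), near the 3.61% of all coding genes. A region lay in the body of 36 of 114 (31.6%), against 23.5% of all coding genes. These 114 genes were long, with a median of 51.2 kb against 17.6 kb for all coding genes. In the longest quartile of coding genes, from 45.6 kb, 64.3% had a region. The part of length in the count of 36 was not tested. Of another GTPase family of membrane traffic, the Arf and Arl genes, 15 of 25 (60.0%) had a PHF2 peak at a start, against the same 30.3%. The median CpG ratio of that family was 0.689.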

How the data were processed

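PHF2 and H3K9me2 ChIP-seq were each represented by 1 peak list from 1 sample. The header of the PHF2 list names MACS, run in Galaxy, and each peak carries the authors' deposited score, with no stated scale. The H3K9me2 list is named with a p of 0.005 whose test is not stated, no caller is stated for it, and its deposited score column holds 0 throughout, so positions alone were used. The submitters' processing notes name Bowtie2 and mm10. Peak lists give no read totals, so depth is unknown, and since each target had 1 sample, the variation between cultures is unknown and no test was made. Chromosome lengths of the GRCm38 reference were compatible with every peak. Coordinates are 1-based on mm10.

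Peaks were overlapped with the GENCODE M21 annotation (Python 3.11.15, pandas 2.3.3, pysam 0.24.0). A start was any annotated transcript start with 1 kb on either side, a body was the gene outside those windows, and an overlap was 1 bp or more. The overlap was tested on simulated peaks. Wilson and Poisson intervals (scipy 1.17.1) are at 95%. Alternatives were other windows, starts, overlaps and peak subsets. The members, roles and lists were chosen with earlier results of these data known, and roles and breadth come from background knowledge. Genes with values of their own are those of the housekeeping and neuron-enriched lists, the highest and lowest scores, genes with H3K9me2 regions, shared peaks, mixed paralogues and the 4 highest scores of each pathway list. No table of proteins was used here. Chromosome 18 sequences are not shown here, although genes and regions of that chromosome entered the CpG ratios and the CpG and repeat counts of regions.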

Additional observations from a re-analysis of the deposited data

How the results depend on the processing

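No paired analysis was possible because each target had 1 sample. Of 60 recomputed values, 37 counted as unmoved (a count within 1.5 times the main count, or the density within its Poisson interval) and 23 did not. Main counts of 1 or 2 genes pass that limit with a change of 1 gene. The PHF2 count at Rab starts, 25, stayed between 23 and 28 under every window, start and overlap tried (28.2% to 32.0% of all coding genes). It became 12 with the peaks above the median score (15.4% of all coding genes) and 1 with the highest-scoring 10% (2.97%). With those subsets the housekeeping count became 5 and 1, the neuron-enriched count 1 and 0, the count restricted to other tissues 0 and 0, and the pathway count 24 and 0. The neuron-enriched count of 2 became 1 (Rab26 lost) with the 5′-most start, with coding transcripts alone, with peak centres, and with a start inside the peak, an alternative chosen after seeing the data. Windows of 5 kb raised the count restricted to other tissues to 3 (32.0% of all coding genes). The H3K9me2 count at starts, 1, became 4 with 2 kb (7.15% of all coding genes), 8 with 5 kb (15.9%), and 0 with the 5′-most start (1.5%) or with regions above the minimum length (1.52%). PHF2 in the body, 6 (7.22% of all coding genes), became 25 with the whole gene (30.6%) and 1 with peak centres (1.34%). With regions above the minimum length, 10 bodies held H3K9me2 (14.1% of all coding genes), at 7.71 per Mb against 6.15 per Mb in all coding bodies.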
